A study of Mus musculus with 36 samples.

Results

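The 8 genes described here encode the mouse enzymes that write, maintain and erase DNA methylation: the dioxygenases Tet1, Tet2 and Tet3, the methyltransferases Dnmt1, Dnmt3a and Dnmt3b, the catalytically inactive cofactor Dnmt3l, and Uhrf1, which brings Dnmt1 to newly copied DNA. They were chosen by gene symbol for this shared function, with earlier results of these data known. Counts and medians of the members beside those of all genes are therefore a description. All 8 were found in each of the 3 count tables, which held 25239 genes for the P-body and cytoplasm libraries, 25229 for the polysome and total RNA libraries and 48440 for the Ago2 KO libraries.

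Dnmt3a and Dnmt3b place methyl groups on unmethylated CpG sites with the help of Dnmt3l, and Dnmt1 with Uhrf1 copies the pattern onto the daughter strand after replication. TET proteins oxidize 5-methylcytosine, which leads to its removal by dilution or by base excision repair. Naive embryonic stem (ES) cells grown with kinase inhibitors are known for a lowly methylated genome, and methylation rises as cells pass to primed pluripotency. P-bodies, membraneless granules of the cytoplasm, gather mRNAs with decay factors and repressors and can keep them away from ribosomes.

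RNA was sequenced from 36 libraries in 16 groups. P-bodies carrying a lentivirally delivered GFP-LSM14A protein were sorted as fluorescent particles from the cytoplasmic part of cell lysates. An aliquot taken before the sort served as the cytoplasm, with 2 libraries in each of these groups. By the study's methods, this cytoplasmic part was a pellet spun down after nuclei were removed and then resuspended. What is called cytoplasm here thus still held P-bodies and left out RNA that stayed in the supernatant. The cells were v6.5 mouse ES cells held naive in N2B27 medium with 2 kinase inhibitors and LIF, the same cells turned primed with activin A and bFGF, and mouse embryonic fibroblasts (MEFs). Fibroblasts were also taken 3 days into reprogramming, after Nudt21 knockdown or its control (day 3). The MEFs carried a doxycycline-inducible cassette of the reprogramming factors in Col1a1, the M2-rtTA transactivator at Rosa26 and a Pou5f1-EGFP reporter. By the study's methods, the reprogramming medium held ascorbic acid, which is a cofactor of TET enzymes. Ago2 KO naive ES cells came from single-cell clones in which a pair of guides cut the gene. For ribosome occupancy, polysome-bound and total RNA were sequenced from naive ES cells whose Ddx6 alleles carried an FKBP12-F36V degron tag. This line was grown from single cells and also expressed GFP-LSM14A. Cells were kept with or without dTAG-13 to remove the DDX6 protein, for hours and not days, in 3 libraries per group. All were given cycloheximide before harvest. The study describes its sequencing replicates as biological. Nothing in the labels says how same-numbered libraries of different groups relate, and p-values measure the spread between libraries only.

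Libraries held 6769731 to 12772246 reads for ES cell fractions, 19384742 to 31185874 for fibroblast fractions, 13308782 to 29362195 for polysome and total RNA and 15624401 to 17486268 for Ago2 KO fractions. Levels are given as CPM, the reads of a gene scaled to a common total in every library with TMM factors, so each is a share of a library's reads and not an amount per cell. Nudt21 measured 4.87 to 5.94 CPM in the knockdown libraries against 88.9 to 110 CPM in the day 3 controls. Ago2 measured 2.54 to 4.83 CPM in the Ago2 KO libraries. Ddx6 RNA checks nothing here, since the degron acts on the protein. The 7 fibroblast markers summed to 37700 to 42000 CPM in MEF cytoplasm and to at most 21.4 CPM in the ES cell fractions of the same table, and the 5 pluripotency markers summed to 1620 to 1970 CPM in naive cytoplasm. Of the 7 fibroblast markers, Prrx1 had no read in any of the primed or naive ES cell fractions. In each of 24 replicate pairs the counts differed beyond sampling noise, and the standard deviation of the log2 difference across genes was 0.45 for the naive cytoplasm pair, against 0.13 to 0.22 for the other pairs of unmodified ES cell fractions. It was 0.6 for Ago2 KO cytoplasm, 0.27 for Ago2 KO P-bodies and 0.11 to 0.2 for polysome and total RNA. No pair was counted as 1 sample.

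In GENCODE M21 (mm10), the genes lie at chr10:62804570-62908996 (Tet1), chr3:133463679-133545139 (Tet2), chr6:83362373-83459084 (Tet3), chr9:20907209-20959888 (Dnmt1), chr12:3806007-3914443 (Dnmt3a), chr2:153649450-153687730 (Dnmt3b), chr10:78041947-78063622 (Dnmt3l) and chr17:56303321-56323486 (Uhrf1). Their longest coding transcripts differ widely. Tet1 measures 14369 bases with a 3′ UTR of 7955, Tet3 10904 with 5669, Dnmt3a 9685 with 6696 and Tet2 9179 with 3058. Each of these 4 transcripts was longer than at least 97.1% of the 20432 coding genes compared. Dnmt1 measures 5870 bases with a 3′ UTR of 312, Dnmt3b 4320 with 1331, Uhrf1 3586 with 984 and Dnmt3l 1822 with 273. Tet1 at 43.7% GC and Tet2 at 45.4% GC lie below the median of 49.3%, and the other 6 lie between 51.9% and 54%. Exons of Dnmt3l overlap those of Aire on the opposite strand, as exons of Dnmt3a overlap Dnmt3aos and those of Tet2 overlap Gm42567. Reads of such partners cannot be told apart without strand, whose use in counting was not stated.

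P-bodies hold mRNAs bound by Argonaute, so sites for 3 microRNAs were searched in the 3′ UTRs: let-7a-5p, which marks differentiated cells, miR-29a-3p, known for targeting this enzyme family, and miR-294-3p, which is abundant in ES cells. Their mature sequences (RefSeq, GRCm38.p6) are shown because the capitals, bases 2 to 8, are the seed that pairs with the target.
let-7a-5p: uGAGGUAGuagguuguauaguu
miR-29a-3p: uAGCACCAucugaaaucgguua
miR-294-3p: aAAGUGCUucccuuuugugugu
The complement of the miR-29a-3p seed, TGGTGCT, occurred 8 times in the 3′ UTR of Tet3, 7 times in Tet1, 5 times in Tet2, 5 times in Dnmt3a and 1 time in Dnmt3b, and not in Dnmt1, Dnmt3l or Uhrf1. Of all 20432 3′ UTRs searched on the transcript strand, 12.9% held this site at least once. Among 3′ UTRs of like length, 51% held it for Tet1, 27.1% for Tet2, 43.9% for Tet3, 46.5% for Dnmt3a and 12.6% for Dnmt3b. The miR-294-3p site, AGCACTT, occurred 3 times in Tet3, 2 times in Tet1 and 1 time in Tet2 and was held by 14.5% of all 3′ UTRs, and by 52.8%, 59.9% and 31% of those of like length to Tet3, Tet1 and Tet2. The let-7a-5p site, CTACCTC, occurred 1 time, in Tet3, and was held by 8.84% of all 3′ UTRs and by 30.5% of those of like length. A match is a stretch of letters and not a measured binding site. Dnmt1, Dnmt3l and Uhrf1 held no site for any of the 3 microRNAs. Whether sites relate to P-body enrichment was not tested. For each gene and microRNA listed next, a selection among members with a match, the site nearest the stop codon is given with its flanking transcript bases. The 7-base match is in capitals.
Tet2, miR-29a-3p, chr3:133466323-133466349, minus strand: caggatcatcTGGTGCTgacgtatgat
Tet2, miR-294-3p, chr3:133465905-133465931, minus strand: gtcttagaaaAGCACTTtgcctaccta
Tet1, miR-29a-3p, chr10:62812200-62812226, minus strand: ccatagagtcTGGTGCTttcccccggg
Tet3, let-7a-5p, chr6:83365320-83365346, minus strand: catgtataacCTACCTCaaatctgtca
Dnmt3a, miR-29a-3p, chr12:3908562-3908588, plus strand: gacttcataaTGGTGCTttcaaaacag
Dnmt3b, miR-29a-3p, chr2:153686617-153686643, plus strand: tagcccggcaTGGTGCTcatgttctct

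The cytoplasmic levels, which are those of the resuspended pellet before the sort, set the scene for the P-body results. In naive ES cells Tet2, Dnmt1 and Uhrf1 were higher than in primed ES cells, and the 3 Dnmt3 genes were lower. Cytoplasmic Tet2 measured 150 and 259 CPM in the naive libraries and 62.7 and 64.8 CPM in the primed ones, a 3.18-fold difference (log2 1.67 ± 0.26 SE, adjusted p = 0.00445). Cytoplasmic Dnmt3b measured 36.2 and 66.1 CPM in naive cells and 400 and 451 CPM in primed cells, which was 8.38-fold lower in naive cells (log2 −3.07 ± 0.29, adjusted p = 9.495e-04). The groups did not overlap for either gene. How many of all genes showed no overlap was not counted, here or below. Members that were not called could also separate, such as Tet2 between P-body and cytoplasm in the day 3 control (log2 −0.03, adjusted p = 0.91 by edgeR).

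Dnmt3l showed the widest gap, with 2.82 and 6.68 CPM in naive cytoplasm against 66.3 and 66.6 CPM in primed cytoplasm (log2 −3.81 ± 0.37, adjusted p = 0.00102). For Dnmt3a the naive values were 52 and 91.7 CPM and the primed values 318 and 347 CPM (log2 −2.22 ± 0.27, adjusted p = 0.002). The maintenance pair was higher in naive cytoplasm, Uhrf1 by 1.24 ± 0.18 and Dnmt1 by 0.79 ± 0.11 on the log2 scale. Tet1 gave −0.43 ± 0.14 (adjusted p = 0.0538) and Tet3 −0.30 ± 0.26 (adjusted p = 0.391), neither past the threshold of 0.05. Thus 3 members were called higher and 3 lower in naive cytoplasm, where 43.8% of the 16125 genes tested were called in either direction. Without either primed cytoplasm library the Dnmt1 call was lost, and without primed cytoplasm library 1 that of Uhrf1.

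Against MEFs, naive cytoplasm was higher for 6 members and lower for Tet3. Tet1 was 11.2-fold higher (log2 3.48 ± 0.15), Uhrf1 8.21-fold, Dnmt3b 8.01-fold, Dnmt1 3.86-fold and Tet2 3.71-fold. Dnmt3l was 4.1-fold higher, a call lost without either MEF cytoplasm library. Tet3, at 7.61 and 9.91 CPM in naive and 53.7 and 57.8 CPM in MEF cytoplasm, was 6.36-fold lower in naive cells (log2 −2.67 ± 0.18, adjusted p = 1.555e-04). Dnmt3a gave −0.39 ± 0.27 (adjusted p = 0.239), and 71.8% of all genes tested were called in this comparison.

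In reprogramming MEFs at day 3, Uhrf1 and Dnmt1, which act at replication, and Dnmt3b were higher than in untreated MEFs. Uhrf1 rose from 104 and 99.8 CPM to 205 and 200 CPM (log2 1.05 ± 0.062, adjusted p = 3.690e-10), Dnmt1 rose by 0.55 ± 0.06, and Dnmt3b rose by 1.43 ± 0.18 on the log2 scale. Tet1 fell from 25.1 and 23.1 CPM to 7.91 and 7.32 CPM (log2 −1.61 ± 0.13, adjusted p = 1.332e-08), Tet2 fell by 0.67 ± 0.084, and Dnmt3a fell by 0.52 ± 0.075. Over the same samples the sum of the 7 fibroblast markers went from 37700 to 42000 CPM in MEF cytoplasm to 5310 to 5460 CPM at day 3. That of the 5 pluripotency markers went from 0.496 to 1.05 CPM to 323 to 332 CPM. That of 6 markers of naive ES cells went from 60.4 to 62.2 CPM to 18.4 to 18.9 CPM. Of these 6, Esrrb and Nr0b1 had no read in MEF cytoplasm, and Esrrb had none at day 3. The sum of 5 markers of primed ES cells went from 52.5 to 57.6 CPM in MEF cytoplasm to 185 CPM in both day 3 libraries. The 5 pluripotency markers include Pou5f1 and Sox2, reprogramming factors of the induced cassette. Cassette RNA was not told apart from RNA of the cells' own genes. The part of these shifts in the results was not tested. In bulk RNA, fewer cells that hold an RNA and less of it per cell cannot be told apart. Tet3 did not pass the test (−0.01 ± 0.081, adjusted p = 0.913). Dnmt3l had 26 and 35 reads in the MEF cytoplasm libraries and 6 and 5 in the day 3 libraries and was also called lower, so 7 members were called where 69.3% of all genes were. Nudt21 knockdown went with higher cytoplasmic Tet2 at day 3, 64.1 and 64.7 CPM against 32.8 and 33.8 CPM (log2 0.96 ± 0.087, adjusted p = 8.291e-08). Uhrf1 rose by 0.51 ± 0.062 and Tet1 by 0.47 ± 0.17, and Dnmt3b fell by 0.63 ± 0.16, while the other 4 members were not called and 49.6% of all genes were. In the knockdown cytoplasm the fibroblast markers summed to 1700 CPM in both libraries and the pluripotency markers to 709 to 804 CPM. The naive ES cell markers summed to 28.6 to 29.3 CPM there and the primed ES cell markers to 213 to 232 CPM. The part of these shifts was not tested. The Tet1 call was lost without day 3 control library 2 (adjusted p = 0.101) or without knockdown library 1 (adjusted p = 0.279).

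Set per kilobase of the longest transcript, so that genes can be ranked against each other, the cytoplasmic order also changed with cell state. Uhrf1 (233 CPM per kb) and Dnmt1 (104) led in naive cells, followed by Tet2 (22.3) and Tet1 (18.8). Dnmt3b (98.4) and Uhrf1 (97.9) led in primed cells, and Tet2 stood at 6.95. The gap between those leaders was smaller than the spread between replicates. In MEFs Uhrf1 (28.4) and Dnmt1 (26.9) led again, and Tet3 (5.12) stood next to Tet2 (6.01) and above Tet1 (1.68).

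**Figure D1:**
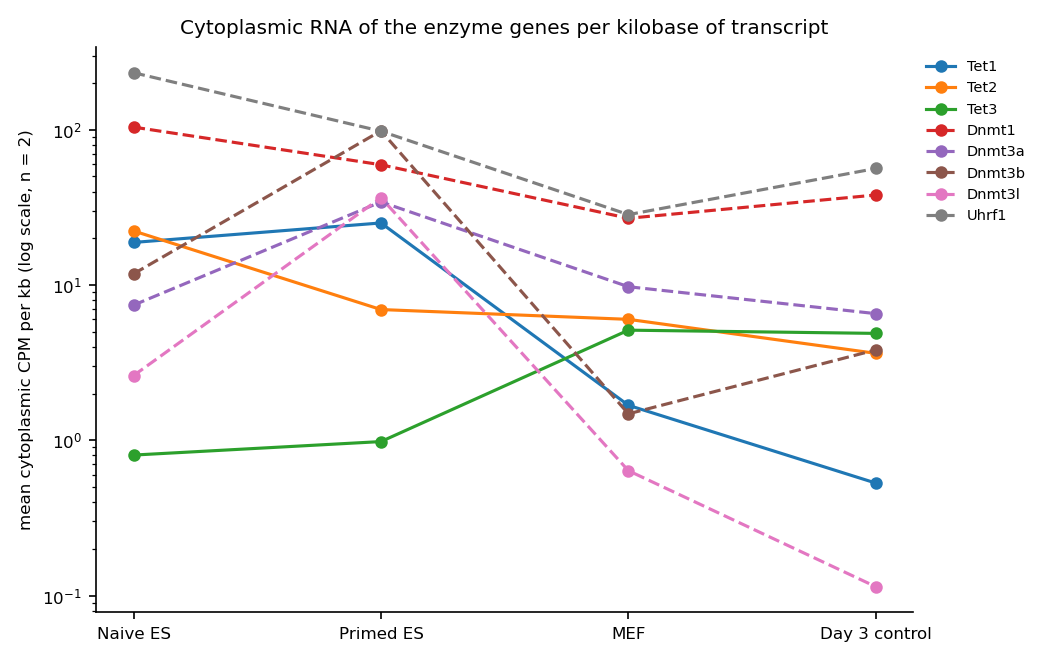
Mean cytoplasmic level of each gene in CPM per kilobase of its longest transcript (log axis, means of 2 libraries), with solid lines for Tet genes and dashed lines for the others. Dnmt3a, Dnmt3b and Dnmt3l peak in primed ES cells, at 34.3, 98.4 and 36.5 CPM per kb, while Tet3 is highest in the fibroblasts.

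P-body enrichment compares the P-body with the cytoplasm of the same cells. In naive ES cells, Tet2, Tet1 and Dnmt3a made up a larger share of the P-body reads than of the cytoplasm reads. The part of each RNA that lies in P-bodies was not measured. Tet2 measured 1220 and 1020 CPM in P-bodies against 150 and 259 CPM in the cytoplasm, a 5.47-fold enrichment that exceeded that of 95.5% of the 15630 genes tested. Tet1 measured 831 and 746 CPM against 242 and 298 CPM (log2 1.55 ± 0.14, adjusted p = 0.00107). Dnmt3a measured 196 and 181 CPM against 52 and 91.7 CPM (log2 1.39 ± 0.27, adjusted p = 0.0126). For all 3 genes each P-body library lay above each cytoplasm library, which was not counted over all genes. The same held for Tet3, Dnmt3b and Dnmt3l, which were not called.

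Dnmt1 was the fourth member called, by a small margin, with 785 and 747 CPM in naive P-bodies and 635 and 583 CPM in the cytoplasm (log2 0.33 ± 0.10, adjusted p = 0.0492). Members not called were Dnmt3l (log2 0.96 ± 0.43), Tet3 (0.71 ± 0.31), Dnmt3b (0.55 ± 0.29) and Uhrf1 (−0.11 ± 0.17). The count was 4 higher and 0 lower, where 22.6% of all genes tested were called higher and 15.4% lower. The median over the 8 members was 0.84, against −0.06 over all genes. The count of 4 depended on the naive library left out, and calls over all genes moved with it. Each omission leaves 1 library in a group. Under omissions the values ran from 2.11 to 2.91 for Tet2, 1.40 to 1.72 for Tet1 and 1.04 to 1.87 for Dnmt3a. They ran from 0.17 to 1.06 for Dnmt3b and from −0.31 to 0.15 for Uhrf1. Dnmt1 lost its call without either P-body library and under DESeq2 (adjusted p = 0.0939), and Dnmt3a without P-body library 1 (adjusted p = 0.0567). The nuclear-retained RNAs Malat1, Neat1, Meg3 and Kcnq1ot1, all 4 detected, summed to 582 to 612 CPM in naive P-body libraries and 197 to 260 CPM in the cytoplasm, and their part in the result was not tested.

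**Figure D2:**
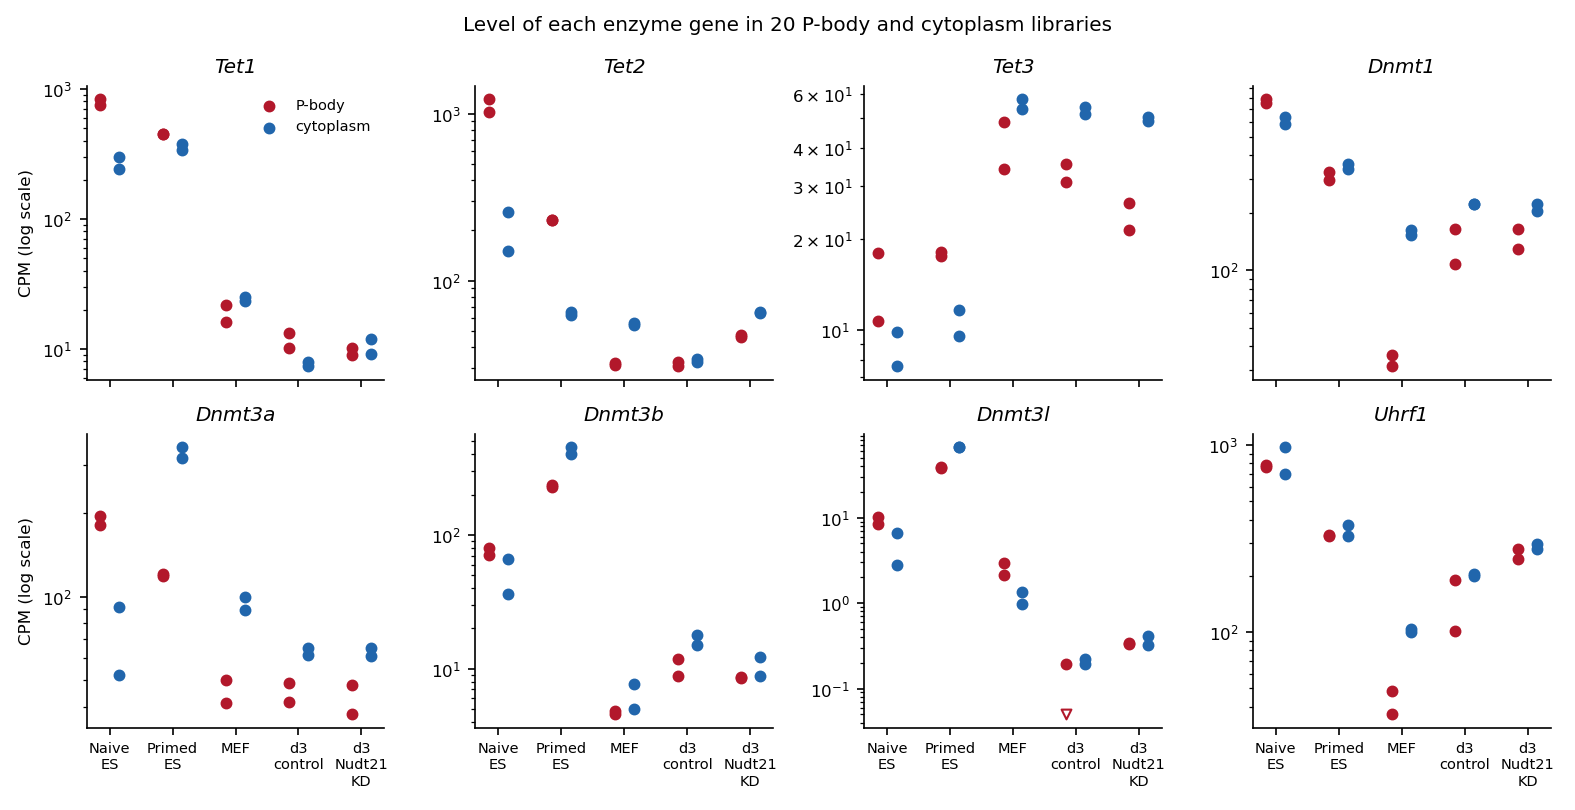
CPM of each gene (log axes, 1 panel per gene with its own range) in every P-body library (red) and cytoplasm library (blue) of 5 cell types, with an open triangle at the foot of the Dnmt3l panel for a library with 0 reads. Tet2 in naive P-bodies sits at 1220 and 1020 CPM, and Dnmt3a changes sides between naive and primed ES cells.

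In primed ES cells the family divided. The 3 Tet genes were called higher in P-bodies, while the 3 Dnmt3 genes and, by a small margin, Dnmt1 were called lower. Tet2 measured 232 CPM in both P-body libraries against 62.7 and 64.8 CPM, a 3.58-fold enrichment above that of 96.6% of genes. Tet3, at 18.2 and 17.6 CPM against 11.7 and 9.61 CPM, was 1.66-fold higher in P-bodies (log2 0.73 ± 0.15, adjusted p = 0.00124). Tet1 was 1.23-fold higher (log2 0.29 ± 0.056, adjusted p = 8.393e-04), a call lost in edgeR with all groups in 1 fit (adjusted p = 0.122). None of these 3 genes overlapped between fractions, which was not counted over all genes.

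Dnmt3a, the methyltransferase that was enriched in naive P-bodies, measured 119 and 121 CPM in primed P-bodies against 318 and 347 CPM in primed cytoplasm. It was thus 2.81-fold lower in the P-body (log2 −1.49 ± 0.061, adjusted p = 1.547e-09), and only 4.53% of genes had a lower value. Dnmt3b fell below the cytoplasm by 0.90 ± 0.061, with 237 and 226 CPM against 400 and 451 CPM. Dnmt3l, at 37.9 and 39.5 CPM against 66.3 and 66.6 CPM, was lower by a similar margin (−0.80 ± 0.085). Dnmt1 was lower by a log2 value of −0.18 ± 0.059 (adjusted p = 0.024). That call was lost without primed P-body library 1 and, in edgeR, with all groups in 1 fit (adjusted p = 0.48). Uhrf1 gave −0.11 ± 0.063 (adjusted p = 0.154). In total 3 members were called higher, where 26.5% of 16177 genes were, and 4 lower, where 24.2% were. The 4 nuclear-retained RNAs summed to 520 to 568 CPM in primed P-bodies and to 713 to 886 CPM in the cytoplasm.

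The difference in enrichment between naive and primed cells was tested directly. Dnmt3a differed most, by 2.74 ± 0.30 on the log2 scale (adjusted p = 5.193e-04), a larger difference than that of 97.5% of the 17199 genes tested. Dnmt3l differed by 1.63 ± 0.39 (adjusted p = 0.0166), Dnmt3b by 1.31 ± 0.31 (adjusted p = 0.0157), Tet1 by 1.11 ± 0.16 (adjusted p = 0.00148) and Dnmt1 by 0.37 ± 0.12 (adjusted p = 0.0474). All 5 were more P-body-enriched in naive cells, and 25.3% of all genes were called in either direction. Tet2, the most enriched member in both states, gave 0.47 with a 95% interval of −0.20 to 1.14 (adjusted p = 0.289). Tet3 gave −0.17 (−0.98 to 0.64) and Uhrf1 −0.13 (−0.57 to 0.30). For Dnmt3a the level in the P-body itself was higher in naive cells, at 196 and 181 CPM against 119 and 121 CPM, although its cytoplasmic level was 4.66-fold lower there. P-body levels between cell states were not tested. The count of 5 depended on the library left out, and calls over all genes moved as well. The calls of Dnmt1, Dnmt3b and Dnmt3l were each lost under some omissions. Under omissions the difference ranged from 2.39 to 3.21 for Dnmt3a, 0.97 to 1.28 for Tet1 and 0.93 to 1.81 for Dnmt3b. It ranged from 1.14 to 2.39 for Dnmt3l and from 0.31 to 0.57 for Dnmt1. Dnmt3a and Tet1 were called under each of these omissions.

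MEF P-bodies showed a different pattern, in which the maintenance genes stood lowest. Dnmt1 measured 36.2 and 31.5 CPM in MEF P-bodies and 163 and 153 CPM in the cytoplasm, a 4.53-fold depletion (log2 −2.18 ± 0.10, adjusted p = 2.095e-06) that was exceeded by 2.13% of 16198 genes. Uhrf1, with 48.2 and 36.4 CPM against 104 and 99.8 CPM, was 2.34-fold lower (log2 −1.23 ± 0.13, adjusted p = 4.197e-05). Dnmt3a was 2.01-fold lower, at 41.3 and 49.7 CPM against 99.6 and 89.3 CPM. The fractions of these 3 genes did not overlap, which was not counted over all genes.

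Tet2, enriched in ES cells, was 1.7-fold lower in MEF P-bodies, with 31.2 and 32 CPM against 54.4 and 56 CPM (log2 −0.76 ± 0.10, adjusted p = 2.220e-04). Dnmt3l was the only member called higher in MEF P-bodies (log2 1.17 ± 0.39, adjusted p = 0.0283), on 48.5 and 69 reads against 26 and 35. That call was lost without MEF P-body library 2 or either cytoplasm library and under DESeq2 (adjusted p = 0.0656). Tet1 (−0.30 ± 0.17), Tet3 (−0.38 ± 0.17) and Dnmt3b (−0.40 ± 0.25) were not called. The count was 1 higher and 4 lower, where 26.6% and 28.7% of genes were called, and the median over the members was −0.58 against 0.03 over all genes. MEF P-body libraries also held more of the 4 nuclear-retained RNAs, 5380 to 7420 CPM against 1150 to 1220 CPM. All 3 lung epithelial markers, Sftpc, Scgb1a1 and Sftpb, were detected there and summed to 6.52 to 94.7 CPM, whereas none had a read in MEF cytoplasm. The part of these in the result was not tested.

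Enrichment differed between naive ES cells and MEFs for 5 members, each higher in naive cells, where 41.3% of 18143 genes were called. Tet2 differed by 3.02 ± 0.31 (adjusted p = 5.583e-05), Dnmt1 by 2.32 ± 0.14 (adjusted p = 7.927e-06), Dnmt3a by 2.21 ± 0.33 (adjusted p = 4.558e-04), Tet1 by 1.66 ± 0.24 (adjusted p = 3.837e-04) and Uhrf1 by 0.93 ± 0.22 (adjusted p = 0.00783). The median difference over all genes was −0.17. These 5 genes were called under each omission of a library. Tet3 gave 0.89 (95% interval 0.05 to 1.73, adjusted p = 0.0855), Dnmt3b 0.75 (−0.18 to 1.68) and Dnmt3l −0.40 (−1.75 to 0.94).

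**Figure D3:**
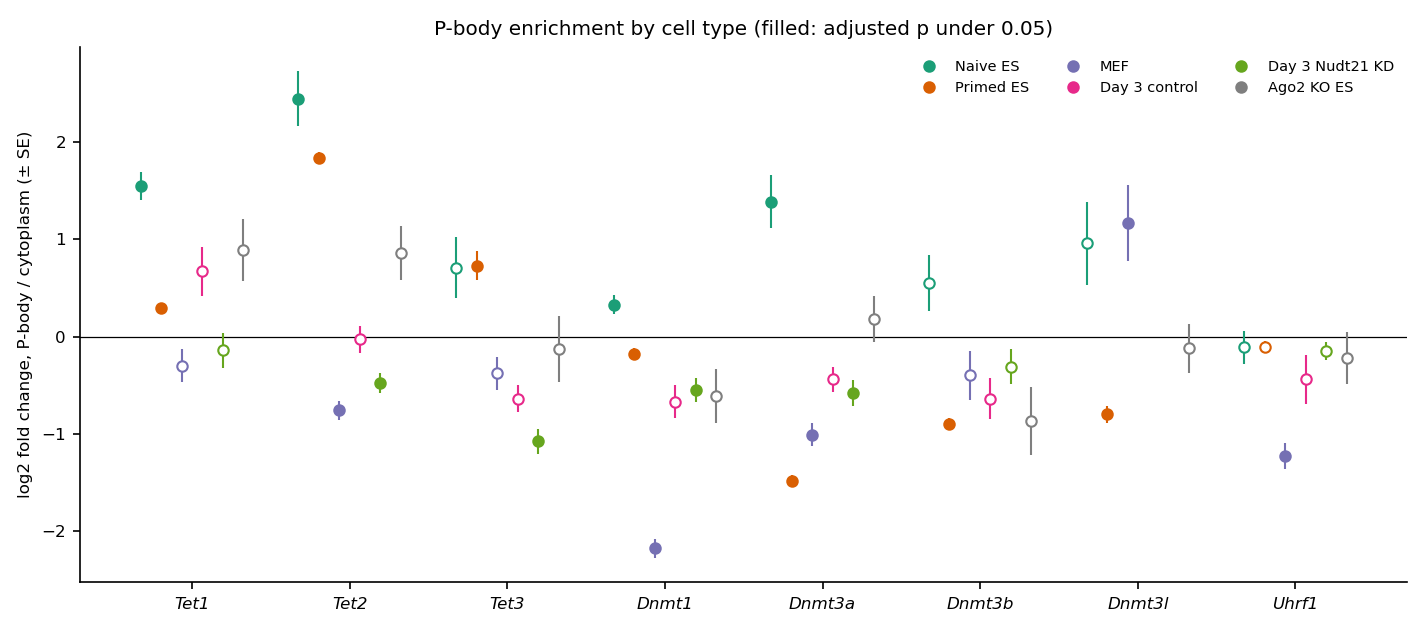
P-body enrichment (log2 fold change of P-body over cytoplasm, points, with SE bars) of each gene in 6 kinds of cells, filled where the adjusted p was under 0.05. Dnmt3l at day 3 is left out because its libraries held 0 to 10 reads. Dnmt3a lies at 1.39 in naive ES cells and −1.49 in primed ES cells, and Dnmt1 reaches −2.18 in MEFs.

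At day 3 of reprogramming, no member was called between P-body and cytoplasm in the control by edgeR. Only 0.196% of 15786 genes were called higher and 0.45% lower. An unadjusted p under 0.05 was found for 3899 of these genes and for 5 members. DESeq2 called 2 of those 5 members, where it called 13.3% of all genes. Tet3 gave −0.64 ± 0.14 (adjusted p = 0.0761), with 35.3 and 30.8 CPM in P-bodies against 51.6 and 54.7 CPM. Dnmt1 gave −0.67 ± 0.17 (adjusted p = 0.103), with 164 and 108 CPM against 223 and 222 CPM, groups that did not overlap. Tet1 was the only member with a positive value, 0.67 ± 0.25 (adjusted p = 0.175), at 10.1 and 13.3 CPM against 7.91 and 7.32 CPM. The P-body pair of the control spread more widely than its cytoplasm pair, as Uhrf1 shows with 190 and 101 CPM against 205 and 200 CPM. Leaving out either P-body library of the control raised calls among the members and over all genes alike. Without P-body library 1 Dnmt1 gave −0.93 and Uhrf1 −0.89, and without P-body library 2 they gave −0.45 and −0.10.

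With Nudt21 knocked down, 4 members were lower in P-bodies at day 3 and 0 higher, where 12.8% and 9.04% of 15995 genes were called. Tet3 measured 21.4 and 26.4 CPM against 49.1 and 50.4 CPM (log2 −1.08 ± 0.13, adjusted p = 6.138e-04), a value below which 5.18% of genes fell. Dnmt3a gave −0.58 ± 0.13, Dnmt1 −0.55 ± 0.12 and Tet2 −0.48 ± 0.10, with adjusted p of 0.0114, 0.00891 and 0.00921. Without cytoplasm library 2 the last 3 calls were lost, and without cytoplasm library 1 that of Tet2. Tested directly, the difference in enrichment between knockdown and control passed for no member: 0 were called by edgeR and by DESeq2. Of 16973 genes edgeR called 0.0118%. An unadjusted p under 0.05 was found for 819 of these genes and for 2 members. Those 2 were Tet1 (−0.78, 95% interval −1.48 to −0.08) and Tet2 (−0.41, −0.78 to −0.05). Without control P-body library 1, Tet1 gave −1.02 and Uhrf1 0.78, and calls over all genes rose under that omission. Dnmt3l had 5 and 0 reads in control P-bodies, 6 and 5 in control cytoplasm, 10 and 10 in knockdown P-bodies and 10 and 9 in knockdown cytoplasm, too few for a fold.

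Day 3 controls differed from MEFs in the enrichment of Dnmt1 (1.55 ± 0.21, adjusted p = 0.00211) and Tet2 (0.77 ± 0.18, adjusted p = 0.0178). Both were less depleted at day 3, and 14.7% of 17488 genes were called. Tet1 (1.01 ± 0.32, adjusted p = 0.0582), Dnmt3a (0.61 ± 0.19, adjusted p = 0.0584) and Uhrf1 (0.83 ± 0.30, adjusted p = 0.0925) did not pass here but were called by DESeq2. The Tet2 call was lost without any cytoplasm library of either group (adjusted p of 0.0888 to 0.12).

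In Ago2 KO naive ES cells no member was called by edgeR or by DESeq2 without a replicate block, and 3 were called with it, as given below. Without the block edgeR called 5.47% of 16808 genes higher and 1.05% lower. An unadjusted p under 0.05 was found for 4031 of these genes and for 3 members. Tet1 measured 396 and 433 CPM in P-bodies against 172 and 275 CPM (log2 0.89 ± 0.32, adjusted p = 0.13). Tet2 measured 147 and 159 CPM against 69.7 and 98.7 CPM (log2 0.86 ± 0.28, adjusted p = 0.101). Neither gene overlapped between fractions, nor did Uhrf1, which had an adjusted p of 0.679. Dnmt3b was the lowest member at −0.87 ± 0.35 (adjusted p = 0.162), and Dnmt3a, at 26.3 and 30.5 CPM against 23.5 and 26.5 CPM, gave 0.18 ± 0.24. With the replicate number as a block, Tet1 (0.93, adjusted p = 0.00621), Tet2 (0.88, adjusted p = 0.00302) and Dnmt3b (−0.82, adjusted p = 0.0129) were called, and calls over all genes went from 1095 to 4178. Deviations of same-numbered libraries correlated at 0.44. By the study's methods the cytoplasm aliquots came from the fraction that was sorted, but no label says that a number marks 1 preparation. The spread was widest in the Ago2 KO cytoplasm, where the replicate chi-square per degree of freedom reached 306. Without cytoplasm library 2 Tet1 and Tet2 were called (adjusted p = 0.00736 and 0.00564), and without cytoplasm library 1 Dnmt1 (−0.94) and Dnmt3b (−1.38) were called lower. The 4 nuclear-retained RNAs summed to 612 to 646 CPM in P-bodies and 188 to 466 CPM in cytoplasm. These libraries were counted by another pipeline than the other ES cell fractions, so enrichment in Ago2 KO and unmodified naive cells was not compared.

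Ribosome occupancy, the ratio of polysome-bound to total RNA, was low for the methylation genes of naive ES cells. Dnmt1 measured 85.1, 83.4 and 80.8 CPM in polysome RNA against 396, 394 and 347 CPM in total RNA (log2 −2.19 ± 0.068, adjusted p = 6.295e-13), and 0.389% of 15411 genes lay lower. Uhrf1 measured 129, 130 and 121 CPM against 422, 418 and 409 CPM (log2 −1.72 ± 0.06, adjusted p = 1.739e-12). Dnmt3b gave −1.43 ± 0.069, with 20.6, 20.2 and 19.6 CPM against 53.4, 55.5 and 53.6 CPM. In these genes every polysome library lay far below every total RNA library.

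Dnmt3a (−0.86 ± 0.085), Dnmt3l (−0.82 ± 0.16), Tet1 (−0.51 ± 0.073) and Tet3 (−0.41 ± 0.11) were also lower in polysomes. Tet2 alone was higher, with 221, 214 and 203 CPM in polysome RNA and 206, 188 and 155 CPM in total RNA (log2 0.21 ± 0.082, adjusted p = 0.0491), and its groups overlapped. Its call was lost when any library but total RNA library 1 was left out. All 8 members were therefore called, 1 higher and 7 lower, where 18.8% of all genes were called higher and 24.1% lower. The median over the members was −0.84, against 0.02 over all genes.

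**Figure D4:**
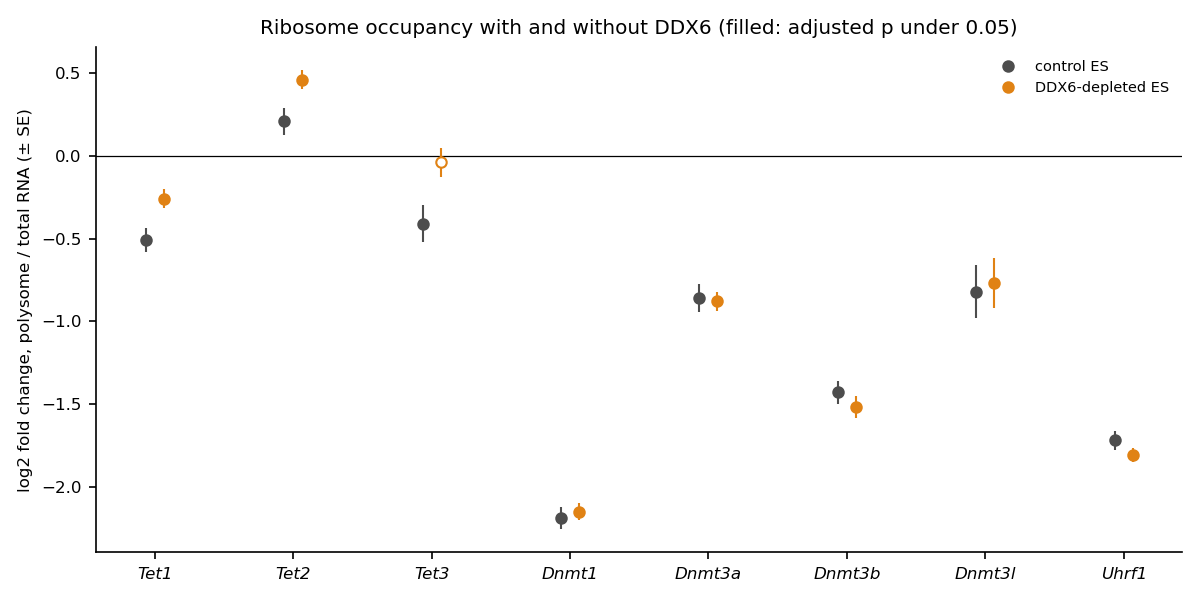
Ribosome occupancy (log2 fold change of polysome-bound over total RNA, with SE bars) of each gene in control ES cells (grey) and DDX6-depleted ES cells (orange), filled where the adjusted p was under 0.05. Dnmt1 lies lowest at −2.19 and −2.15 and Tet2 highest at 0.21 and 0.46.

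Removal of DDX6 left this order in place. In depleted cells Tet2 was higher in polysomes (0.46 ± 0.059), 6 members were lower and Tet3 was not called (−0.04 ± 0.086), where 24% of 15638 genes were called higher and 26.8% lower. The change of occupancy itself was called for 0 of 16345 genes by edgeR (0% of those tested), 844 of which had an unadjusted p under 0.05, and for 4 genes by DESeq2, none of them a member. The 3 members with an unadjusted p under 0.05 were Tet3 (0.37, 95% interval 0.09 to 0.65), Tet1 (0.25, 0.03 to 0.46) and Tet2 (0.24, 0.01 to 0.48). The other 5 gave values from −0.10 to 0.04, such as Dnmt1 (0.04, −0.13 to 0.21) and Dnmt3a (−0.03, −0.24 to 0.19).

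In total RNA, Tet1 fell on DDX6 loss from 233, 219 and 194 CPM to 167, 152 and 176 CPM (log2 −0.40 ± 0.071, adjusted p = 0.0138). It was the only member called, where 3.31% of 15380 genes were, and its call was lost without control library 1 or 2 or without depleted library 1 or 2. Tet2 gave −0.24 ± 0.09 (adjusted p = 0.162) and Uhrf1 −0.18 ± 0.046 (adjusted p = 0.0546). Without control library 3 these and Dnmt1 were called as well, where 22.2% of all genes were called. In polysome RNA, Uhrf1 fell from 129, 130 and 121 CPM to 105, 104 and 108 CPM (log2 −0.26 ± 0.045, adjusted p = 0.00472), the only call among the members, where 4.26% of 15625 genes were called. Its groups did not overlap, and it was called without any library. Tet3 gave 0.27 ± 0.10 (adjusted p = 0.152) and Tet2 0.01 ± 0.053 in polysome RNA.

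Partner genes of the family were followed in 5 lists of 34 genes in all: readers of methylated DNA, partners of maintenance, base excision and TET partners, suppliers of the methyl donor, and guides and antagonists of methylation. These lists too were chosen with earlier results known, so their counts beside all genes are a description. In naive ES cells 15 of 33 tested partners were higher in P-bodies and 4 lower, with a median of 0.50, beside 22.6% and 15.4% of all genes. Readers (5 higher, 0 lower of 8, median 1.14) and maintenance partners (4 higher, 0 lower of 5, median 0.77) stood above the median of all genes at −0.06, as did the methyl donor genes (2 higher of 3). Base excision and TET partners gave 3 higher and 3 lower of 9, and guides and antagonists 1 and 1 of 8. The highest was Zbtb38, a zinc finger reader, at 241 CPM on average in P-bodies against 23.4 CPM (log2 3.36 ± 0.24, adjusted p = 5.732e-04). The lowest was Trim28, a corepressor that protects methylation at imprinted genes (−0.95 ± 0.099, adjusted p = 0.00165).

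In primed cells 16 of 34 partners were higher and 6 lower in P-bodies, beside 26.5% and 24.2% of all genes. They ran from the reader Mbd2 (3.20 ± 0.20, adjusted p = 4.936e-08) to Mat2a, which makes the methyl donor (−0.84 ± 0.058, adjusted p = 1.385e-07). In MEFs 13 of 33 were higher and 9 lower, beside 26.6% and 28.7% of all genes, and both ends were readers, Mbd2 (1.18 ± 0.17, adjusted p = 2.871e-04) and Mbd1 (−1.03 ± 0.14, adjusted p = 2.450e-04). At day 3 none of 33 was called in the control by edgeR, with 5 at an unadjusted p under 0.05, as were 3899 of all 15786 genes. With Nudt21 knockdown 3 were higher and 6 lower (9.04% and 12.8% of all genes), from Mat2b, a subunit of the Mat2a enzyme (0.52 ± 0.10), to Nsd1, a histone methyltransferase (−0.47 ± 0.089). In Ago2 KO cells 2 of 33 were called, both higher (5.47% of all genes), the chromatin remodeller Hells (2.04 ± 0.29, adjusted p = 0.00445) and Zbtb38 (1.01 ± 0.24, adjusted p = 0.0393). Between naive and primed cells the enrichment of 17 of 34 partners differed (25.3% of all genes), from Mat2a (1.85 ± 0.12, higher in naive) to the metabolic enzyme Idh2 (−1.17 ± 0.12). Between naive cells and MEFs it differed for 23 of 34 (41.3% of all genes), from Zbtb38 (3.95 ± 0.27) to the repair endonuclease Apex1 (−1.52 ± 0.14).

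Occupancy of the partners in control cells was higher in 5 and lower in 14 of 33, beside 18.8% and 24.1% of all genes. It ran from Dppa3, which keeps Uhrf1 away from chromatin (0.43 ± 0.086, adjusted p = 6.826e-04), to Trim28, with 361 CPM in polysome RNA against 1330 CPM in total RNA (−1.89 ± 0.068, adjusted p = 2.253e-12). Trim28 was again the lowest in DDX6-depleted cells (−2.08 ± 0.044), where the repair glycosylase Smug1 was the highest (0.39 ± 0.062) among 8 higher and 17 lower, beside 24% and 26.8% of all genes. On DDX6 loss 2 of 33 partners fell in total RNA (3.31% of all genes were called), Ogt, a sugar transferase bound by TET proteins (−0.45 ± 0.073), and Nsd1 (−0.32 ± 0.072). In polysome RNA 3 of 33 fell (4.26% of all genes were called), among them Trim28 (−0.28 ± 0.047) and Mbd3 (−0.19 ± 0.048). No change of occupancy was called among the 33 by edgeR, with 5 at an unadjusted p under 0.05, as were 844 of all 16345 genes.

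Across the 20 libraries of the P-body and cytoplasm table, genes of most similar profile were ranked among 10253 genes with a mean of at least 10 CPM, by Pearson's r of log2(CPM + 1). These libraries share cell types and fractions, so r is a description. Tet1 ran closest to Zfp600 and Rex2 (both r = 0.986), Tet2 to Pias2 (0.973) and Sall3 (0.964), and Tet3 to Rgl1 (0.951) and Tanc2 (0.947). Dnmt1 was nearest Pik3r4 (0.983) and Ppp6r3 (0.982), and Uhrf1 nearest L3mbtl2 (0.987) and Dhx16 (0.985). Dnmt3b was followed by Raver2 (0.978) and Cgn (0.975), Dnmt3l by Pdlim3 (0.974) and Lefty1 (0.968), and Dnmt3a by Gfpt2 (0.936) and Sbf2 (0.891). Among the members themselves r was highest for Dnmt1 and Uhrf1 (0.951) and for Dnmt3b and Dnmt3l (0.912), whereas Tet3 had negative values with all 7 others, lowest with Tet1 (−0.815).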

How the data were processed

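RNA of P-body and cytoplasm fractions and of polysome-bound and total RNA was analysed from 36 libraries. For the P-body and cytoplasm libraries of unmodified ES cells and fibroblasts, the authors aligned reads to mm10 with HISAT2 and counted them with featureCounts on exons of refGene genes, depositing estimated counts, of which 17.6% to 25.7% per library were not whole. For polysome, total RNA and Ago2 KO libraries they deposited expected counts from salmon (5.05% to 6.19% and 11.6% to 13.1% not whole). How shared reads were divided was not stated. A further 10 deposited tables hold fold changes and p-values of the authors' comparisons and were not used.

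Counts were rounded and scaled by TMM and tested two-sided with edgeR 4.0.16 (quasi-likelihood, R 4.3.3), using only the libraries of each comparison. Genes whose reads came to 10 or more across those libraries were kept. A gene was called at a Benjamini-Hochberg adjusted p under 0.05 over all genes of the fit. Differences in enrichment or occupancy were interaction contrasts. SE values follow from the test statistic, and 95% intervals use the t distribution with the degrees of freedom of the fit. Levels use library sizes scaled over the whole table and can differ slightly from the fitted ratios. The steps were tested on simulated data. Alternatives were DESeq2 (version 1.42.0), its size factors in edgeR, other filters, a block for the replicate number, a fit of all groups together, and leaving out each library. By the study's methods, each sorted sample had a matching pre-sort aliquot, and total RNA was kept from each polysome lysate. No label ties these pairs to the replicate numbers. A block was not used in the main fits, since outside Ago2 KO same-numbered libraries did not deviate together (correlations of −0.25 to 0.22). Over the 2 Ago2 KO pairs the correlation was 0.44, and results with the block are given beside the main ones. When an omission leaves 1 library in a group, that library is assumed to vary like the others. Transcript lengths, 3′ UTRs and coordinates were taken from GENCODE M21, and plots from matplotlib.

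The members, the partner lists and the microRNAs were chosen with earlier results of these data known. The genes named are the 8 members throughout, the targeted genes, the called partner with the highest and the lowest log2 fold change per comparison among those with a mean of at least 10 CPM, and the 2 genes of most similar profile per member. Intervals and counts cover the spread between libraries only. UTRs count as of like length from 20% shorter to 25% longer than the member's.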

Additional observations from a re-analysis of the deposited data

Results flagged for a closer look

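P-body enrichment differed between cell types, by an interaction test in edgeR with 2 libraries per fraction, in 12 results. Between naive and primed ES cells the differences were 1.11 for Tet1, 0.37 for Dnmt1, 2.74 for Dnmt3a, 1.31 for Dnmt3b and 1.63 for Dnmt3l on the log2 scale. Between naive ES cells and MEFs they were 1.66 for Tet1, 3.02 for Tet2, 2.32 for Dnmt1, 2.21 for Dnmt3a and 0.93 for Uhrf1. Between day 3 controls and MEFs they were 0.77 for Tet2 and 1.55 for Dnmt1. In these comparisons 25.3%, 41.3% and 14.7% of all genes were called, in that order. Each of the 12 differences was positive. This means a higher share of P-body reads, relative to that of cytoplasm reads, in the cell type named before the other. For Dnmt3a the enrichment was called higher in naive and lower in primed cells. The Dnmt1 call between naive and primed cells was lost in edgeR with the replicate block (adjusted p = 0.0647) and with all groups in 1 fit (adjusted p = 0.0873). Some omissions of a library also lost the calls of Dnmt1, Dnmt3b and Dnmt3l between naive and primed cells. The same held for Tet2 between day 3 controls and MEFs. The comparisons with naive cells share the naive libraries, and those with MEFs share the MEF libraries.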

How the results depend on the processing

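Across all members and comparisons, 837 values kept direction and side of the threshold under the alternatives other than omissions, 36 gained a call, 15 lost it and 5 changed sign, and under omission of a library the numbers were 733, 44, 43 and 44. Numbers of members called moved most where few were called. For P-body enrichment in the day 3 control, 0 became 2 under DESeq2, 2 with no filter, 1 with the replicate block and 3 with all groups in 1 fit, and ranged from 0 to 6 under omissions. For the Nudt21 knockdown 4 became 2 with all groups in 1 fit and ranged from 1 to 5, for Ago2 KO 0 became 1 with no filter and 3 with the replicate block and ranged from 0 to 2, and for naive cells 4 ranged from 2 to 8. For the difference in enrichment between naive and primed cells 5 ranged from 2 to 7, between day 3 and MEFs 2 became 5 under DESeq2, 5 with no filter and 4 with all groups and ranged from 1 to 4, and between knockdown and control 0 ranged from 0 to 2. Cytoplasmic calls on Nudt21 knockdown went from 4 to 1 with all groups in 1 fit, and total RNA calls on DDX6 loss from 1 to 2 under DESeq2, 2 with its size factors, 2 with no filter, 2 with all groups and 0 with the replicate block, with 0 to 4 under omissions. The cause was not tested. Under omissions the number of calls over all genes moved as well, so these counts are not particular to the members. Changes of sign concerned values that were not called in the report: cytoplasmic Dnmt3a on Nudt21 knockdown was 0.01 under DESeq2, 0.01 with its size factors and 0.00 with filterByExpr (−0.06 to 0.06 under omissions), polysome Tet2 on DDX6 loss −0.01 with all groups in 1 fit (−0.03 to 0.07), and polysome Dnmt3a 0.00 with the replicate block (−0.07 to 0.12). Under omissions alone, enrichment ranged from −0.31 to 0.15 for Uhrf1 in naive cells, from −0.30 to 0.04 for Tet1 and −0.34 to 0.07 for Dnmt3l with Nudt21 knockdown, and from −0.57 to 0.25 for Tet3 and −0.02 to 0.29 for Dnmt3a in Ago2 KO cells. Its difference ranged from −0.56 to 0.16 for Tet3 and −0.35 to 0.12 for Uhrf1 between naive and primed cells, −0.90 to 0.37 for Dnmt3l between naive cells and MEFs, −0.47 to 0.09 for Tet3 and −0.54 to 0.08 for Dnmt3b between day 3 and MEFs, and −0.08 to 0.42 for Dnmt1, −0.29 to 0.05 for Dnmt3a, −0.00 to 5.35 for Dnmt3l and −0.03 to 0.78 for Uhrf1 between knockdown and control. Cytoplasmic Dnmt3a between naive cells and MEFs ranged from −0.84 to 0.00, Tet3 between day 3 and MEFs from −0.07 to 0.04 and Dnmt1 on Nudt21 knockdown from −0.13 to 0.02. Occupancy of Tet3 in DDX6-depleted cells ranged from −0.08 to 0.00, its change from −0.09 to 0.10 for Dnmt3a and −0.13 to 0.22 for Dnmt3l, total RNA on DDX6 loss from −0.02 to 0.05 for Dnmt3a and −0.15 to 0.04 for Dnmt3l, and polysome Dnmt3l from −0.19 to 0.15. Over all genes, the day 3 control gave 102 calls, against 2105 under DESeq2, 202 with filterByExpr, 1940 with no filter, 802 with the replicate block and 3891 with all groups in 1 fit. Ago2 KO gave 1095, against 1731 under DESeq2, 716 with its size factors, 2643 with no filter and 4178 with the replicate block. The knockdown difference gave 2, against 26 under DESeq2, 62 with no filter, 1 with the replicate block and 3 with all groups, and the occupancy change 0, against 4, 16 and 6 under DESeq2, no filter and the replicate block. DDX6 loss gave 509 in total RNA, against 832 under DESeq2, 863 with no filter, 82 with the replicate block and 1175 with all groups, and 666 in polysome RNA, against 1029 with no filter. With all groups in 1 fit, primed enrichment fell from 8209 to 5445 calls and cytoplasmic change on knockdown from 7934 to 5282. With 2 or 3 libraries a group and few reads, small differences of Dnmt3l and Tet3 could not be resolved.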
